A study of Mus musculus with 6 samples.

Results

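The cells described here were neurons of the mouse dorsal root ganglion that held Ntrk3 transcripts together with Nefh transcripts but little or no Pvalb, Calb1 or Ntrk2. Each cell was a droplet barcode, and its transcripts were counted as unique molecular identifiers (UMIs, 1 per captured RNA molecule). A cell was taken when it had at least 2 Nefh UMIs, at least 1 Ntrk3 UMI, fewer than 3 Pvalb UMIs, fewer than 2 Calb1 UMIs, fewer than 2 Ntrk2 UMIs and no UMI of Bmpr1b or Prokr2. It also had to have fewer than 3 Calca UMIs and fewer than 3 UMIs of Mrgprd and Lpar3 together. The members were thus selected on these UMI counts, which are no finding here. The rule took 685 of the 21685 cells of the 6 mice. Removal of 20 probable doublets left 665 members, and no member fell below the filters on genes per cell and mitochondrial share. After the same filters the 6 mice had 21023 cells, of which 4357 had 2 or more Nefh UMIs.

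The tested mice carried a homozygous loss of Ttpa (Ttpa-/-), the gene of the alpha-tocopherol transfer protein, and were 6 months old. Of these, mouse 654 (female) and mouse 657 (male) were fed a diet deficient in vitamin E, and mouse 670 (male) and mouse 671 (female) a diet supplemented with it. The wild-type Ttpa+/+ mice, 698 (female) and 699 (male), were 5 months old and on a basal diet. Genotype, age and diet therefore cannot be told apart between the Ttpa-/- and the wild-type mice, while the deficient and supplemented mice differed by diet alone as far as the labels go. Every group had 2 mice. The p-values of the gene tests below rest on a spread estimated from all 6 mice together and partly across genes. The p-value of the members' share comes from permuting the 6 mice. The labels name no strain.

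Ntrk3 encodes TrkC, the receptor for neurotrophin-3, and Nefh encodes the heavy neurofilament subunit of large myelinated axons. In the dorsal root ganglion, Ntrk3 and Nefh are found together in proprioceptors, which are rich in Pvalb, and in A-beta neurons that sense touch. The alpha-tocopherol transfer protein loads vitamin E, a lipid-soluble antioxidant, onto lipoproteins in the liver, and its loss in humans causes ataxia with sensory neuropathy.

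The members numbered 103 and 86 in the deficient mice 654 and 657, 162 and 113 in the supplemented mice 670 and 671, and 80 and 121 in the wild-type mice 698 and 699. Their summed UMIs, in the same order of mice, were 477417 and 836179, 614864 and 781207, and 650282 and 1245049. Libraries 654 and 670 stood apart from the other 4. The median member held 3795 UMIs in mouse 654 and 3242 in mouse 670, against 5942 to 9183 in the others. Its median share of mitochondrial UMIs was 0.537% in mouse 654 and 0.718% in mouse 670, against 1.94% to 2.28%. These 2 libraries belong to different diets, and both are Ttpa-/-. Of all barcodes, 261 occurred in more than 1 library, and 2 of those were among the members. Ttpa itself had 0 UMIs in the members of all 6 mice, which allows at most 2.41 to 6.28 CPM (counts of a gene scaled to the summed counts of the cells, the level unit used below), so its transcript does not check the genotype in these cells. Over all kept cells there were 4 and 5 Ttpa UMIs in the libraries labelled deficient, 1 and 4 in those labelled supplemented and 0 in both labelled wild type, which does not follow the labelled genotype. The labels do not say which part of the gene is lost, so these 3' tags may lie outside it, and every direction below goes by the labels.

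The marker genes given for these cells were partly borne out. Cntnap2, a neurexin family protein of axons, was detected in 532 of the 665 members (80.0%). Scn1a, a voltage-gated sodium channel of large neurons, was detected in 442 (66.5%). Fam19a1, a secreted protein gene, was found in 216 members (32.5%). Cells with 3000 or more UMIs were also thinned to 3000 UMIs, shallower cells were left out, and the rule was applied again. The Fam19a1 share was then 18.3% in members, 11.7% in Nefh cells with 3 or more Pvalb UMIs and 1.53% in cells with fewer than 2 Nefh UMIs. The thinned share of Cntnap2 was 67.9% in members and 93.3% in the Pvalb cells, so it was commoner in the Pvalb cells. On the same thinned scale Scn1a was detected in 48.5% of members, against 62.5% of the Pvalb cells and 5.16% of the cells low in Nefh. Summed per mouse, Fam19a1 stood at 69.1 and 99.3 CPM in the deficient mice, 74.8 and 62.7 CPM in the supplemented mice and 75.4 and 89.2 CPM in the wild-type mice. The groups overlapped for this marker, as they did for Scn1a, which ranged between 189 and 254 CPM over the 6 mice.

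Other markers showed a mixed population. Ret, a receptor of the GDNF family ligands, was detected in 471 members (70.8%) and Slc17a7, a vesicular glutamate transporter, in 299 (45.0%). Runx3, a transcription factor of proprioceptors, was detected in 55 members (8.27%), Colq in 2 and Mafa, a transcription factor of rapidly adapting A-beta neurons, in none. Mafa was also at 0 in the Calb1 cells and every other set, so it does not separate them. Cells near the limits of the rule were numerous. There were 124 members with a single Ntrk3 UMI, and 237 cells just outside met every other condition with 0. There were 41 members with 2 Pvalb UMIs and 41 cells just outside with 3. For Calb1 the numbers were 36 members with 1 UMI and 26 cells just outside with 2, and for Ntrk2 115 members with 1 and 50 cells just outside with 2. Markers of other ganglion cells varied. Summed fibroblast, endothelial and macrophage markers stayed under 10 CPM in every mouse, with Col1a1 and Cldn5 at 0. Summed satellite glia markers stood at 698 to 1058 CPM over the 6 mice, mostly Fbxo2, and myelinating Schwann markers at 346 to 481 CPM, mostly Pmp22. Erythroid markers stood at 859 CPM in mouse 670 and at 21.8 to 113 CPM in the others.

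Set beside the neighbouring Nefh cells, the summed counts of the members were marked by S100a16, a calcium-binding protein of the S100 family. Only part of the members held it. It was detected in 68.5% of members with 5 or more Ntrk3 UMIs, 23.1% of those with 2 to 4 and 8.1% of those with 1. S100a16 averaged 551 ± 67.2 CPM in members (SD over 6 mice), against 2.71 ± 3.00 CPM in the 711 Pvalb cells, 8.37 ± 5.42 CPM in the 332 Calb1 cells (2 or more Calb1 UMIs) and 13.9 ± 18.7 CPM in the 575 Ntrk2 cells (2 or more Ntrk2 UMIs). It led all 3 comparisons, with a median log2 ratio over the 6 mice of 5.63, 4.94 and 5.42 (10 CPM added). Nmb, the neuropeptide neuromedin B, averaged 274 ± 48.0 CPM in members, against 3.95, 2.08 and 9.80 CPM in the same 3 sets. It was not particular to members in the ganglion as a whole, since all other cells averaged 362 ± 29.5 CPM. These ratios compare sets that the selection separated and carry no test.

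The genes that set members apart from the neighbours were partly shared between them, such as Cadps2 and Tmem72, higher in both Calb1 and Ntrk2 cells. A gene was counted when it reached 50 CPM in either set and differed by 1.5-fold or more in the same direction in all 6 mice. Against the Pvalb cells, 263 of 3883 genes (6.77%) were higher in members and 333 (8.58%) were lower. The higher genes were led, after S100a16 and Nmb, by S100a6, Tspan8, Pcp4l1 (a relative of the calmodulin-binding protein Pcp4), Cplx2 (complexin, which acts in vesicle fusion), Cd24a and Gap43 (a growth cone protein). The lower genes were led by Spp1 (osteopontin), Pln (phospholamban), Plekhg1, Cbln2, Nxph1, Lancl3, Rasgrp2 and Ina (the neurofilament protein internexin). Spp1 averaged 29.0 ± 14.9 CPM in members and 434 ± 81.5 CPM in Pvalb cells. The 6 ratios did not change sign for any of these genes.

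Against the Calb1 cells, 106 of 3865 genes (2.74%) were higher in members and 111 (2.87%) were lower. Chl1, a neural cell adhesion molecule, averaged 163 ± 24.9 CPM in members and 0.306 ± 0.750 CPM in Calb1 cells. Fxyd7, a regulator of the sodium pump, averaged 3616 ± 584 CPM in members and 198 ± 88.4 CPM in Calb1 cells. Cd9 (a tetraspanin), Gm765 and Syt6 (a synaptotagmin) were also among the 8 leading genes. The genes lower in members were led by Calb2 (calretinin), Cadps2 (a priming factor of dense-core vesicles), Tmem72, Stxbp6, Mef2c, Nsg1, Camk2n1 and Shox2. Shox2, a homeobox transcription factor of touch neurons, averaged 35.5 ± 15.5 CPM in members and 202 ± 40.1 CPM in Calb1 cells. It was higher still in Pvalb cells (300 ± 32.3 CPM).

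Against the Ntrk2 cells, which carry the receptor TrkB, 150 of 3645 genes (4.12%) were higher in members and 176 (4.83%) were lower. Ptgfr, the prostaglandin F receptor, averaged 306 ± 73.5 CPM in members and 21.1 ± 13.7 CPM in Ntrk2 cells. Meis2, a homeobox transcription factor, averaged 152 ± 14.1 CPM in members and 8.60 ± 6.19 CPM in Ntrk2 cells. The other leading genes were S100a16, Nmb, Chl1 (163 ± 24.9 CPM in members and 4.41 ± 4.92 CPM in Ntrk2 cells), Trappc3l, Pcp4l1 and Cd9. Cadps2 led the lower genes, with 27.4 ± 7.67 CPM in members and 918 ± 148 CPM in Ntrk2 cells. It was followed by Tmem72, Rgs5, P2ry1 (a purinergic receptor), Lypd1, Pdlim1, Tbx3 and Tagln2.

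**Figure D1:**
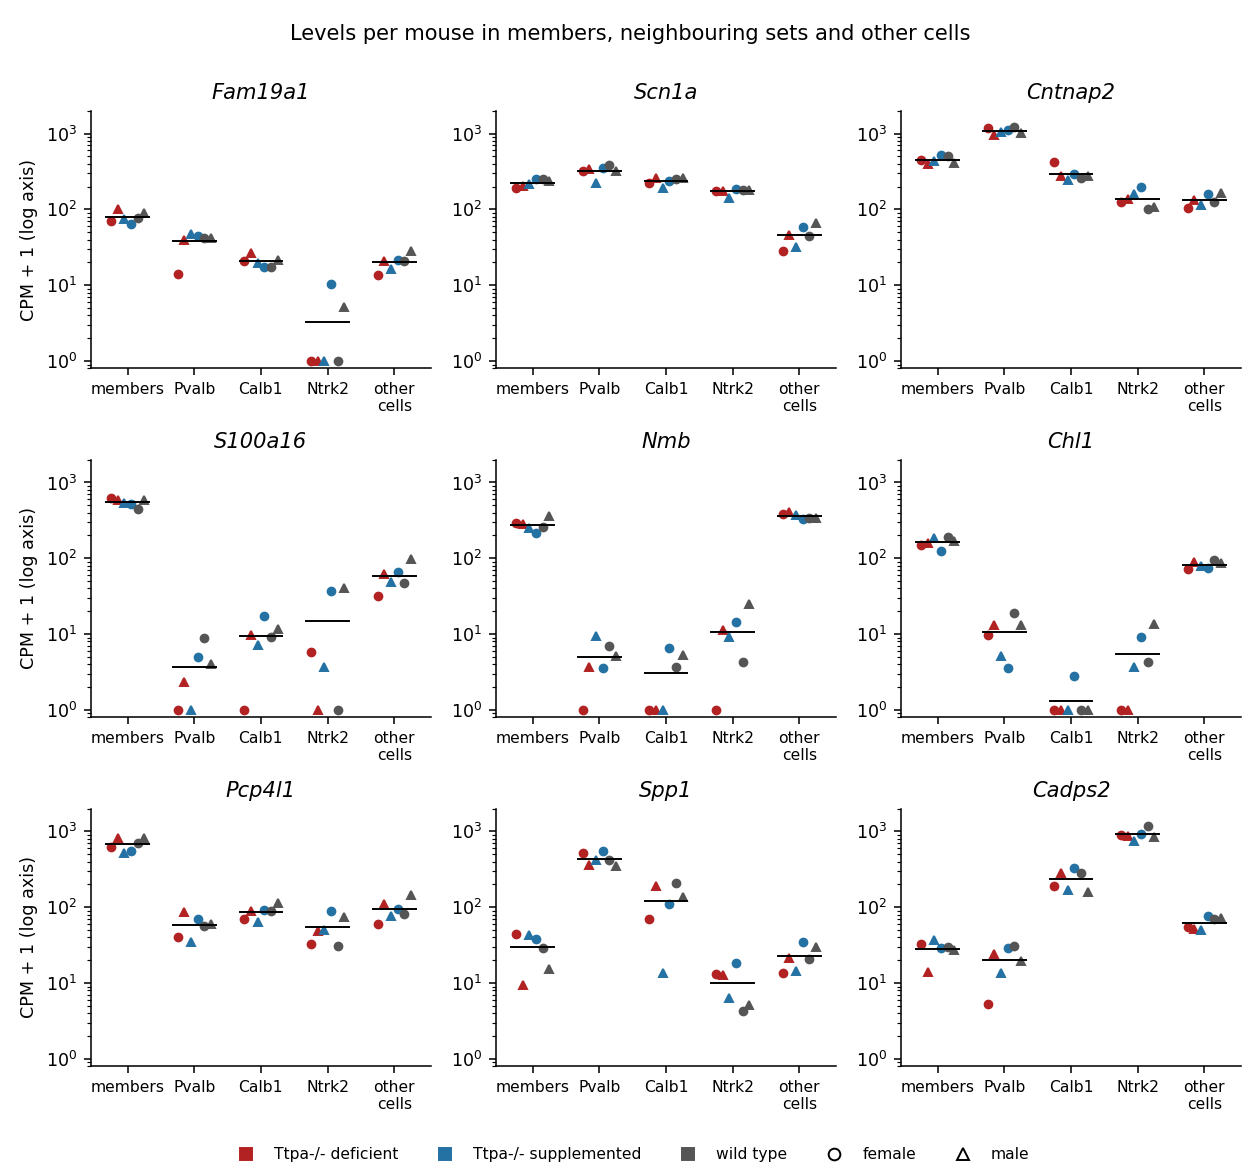
Summed level in CPM (1 added, log axis) of 9 genes in the members and, to their right, in the Pvalb, Calb1 and Ntrk2 cells and in all other cells; each point is 1 mouse and the line is the mean of 6. S100a16 averaged 551 CPM in members and at most 13.9 CPM in the 3 neighbouring sets, while Spp1 and Cadps2 were highest in the Pvalb cells and the Ntrk2 cells.

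Clustering of the 665 members on their own gave 6 clusters, each with cells of all 6 mice. They are described by number and leading genes, since the genes that define a cluster were used to draw it. Cluster 1 had 208 cells and the deepest libraries (median 8628 UMIs). It was led by Psmb2 (a proteasome subunit), Ndufb6 (a subunit of respiratory complex I), Mgst3 (a microsomal glutathione transferase) and Hspb1 (a small heat shock protein). S100a16 stood at 904 CPM there and Nmb at 482 CPM. Cluster 3, with 139 cells, was led by Col25a1 and included Hapln1 (a link protein of the extracellular matrix) among its leading genes. It had the highest Ntrk3 (2040 CPM), Ret (721 CPM), Ptgfr (576 CPM) and Meis2 (277 CPM) of the 6 clusters. Hba-a2 ranked second in cluster 3, and 94 of its 114 UMIs came from 1 cell. Cluster 4, with 99 cells, was led by Sema5a (a semaphorin), Dkk3 and Hjurp, and had the highest Fam19a1 (163 CPM) and Gap43 (1284 CPM).

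Cluster 2 was low in Fam19a1 and S100a16. Its 154 cells had a median of 3085 UMIs, the lowest of the 6. They were led by Cbln2 (a cerebellin), Spp1 (194 CPM), Runx3 (167 CPM) and Slit2 (an axon guidance ligand), and held all 55 members with a Runx3 UMI. Runx3 was detected in 35.7% of the cluster's cells. The cluster also held 30 of the 36 members with a Calb1 UMI and 45 of the 115 with an Ntrk2 UMI. Stxbp6 and Mef2c, both higher in Calb1 cells than in members, were among its leading genes, and Shox2 stood at 165 CPM. Fam19a1 stood at 15.5 CPM and S100a16 at 6.88 CPM in this cluster, whereas Slc17a7 stood at 500 CPM. Among members sorted by Pvalb, Runx3 stood at 7.77 CPM with 0 Pvalb UMIs, 75.6 CPM with 1 and 130 CPM with 2. Spp1 stood at 15.5, 36.9 and 194 CPM. Both genes are high in proprioceptors.

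Clusters 5 and 6 had little of what the label names. The 37 cells of cluster 5 were led by Fxyd6 and by Th (tyrosine hydroxylase, 467 CPM), with Fam19a4 at 584 CPM. Th and Fam19a4 are known from unmyelinated touch neurons. Fam19a4 was not confined to cluster 5, since it was detected in 217 members (32.6%), with 43.8% of cluster 1 cells and 49.6% of cluster 3 cells. In cluster 5 Ntrk3 stood at 381 CPM and Nefh at 412 CPM, both under a level of 1000 CPM that clusters 1 to 4 passed. The 28 cells of cluster 6 had 256 CPM of Scn10a, the sodium channel of nociceptors, and 565 CPM of Bhlhe41, a transcriptional repressor. Fam19a1 was not detected in clusters 5 and 6, and Scn1a was not detected in cluster 6. Because of these 2 clusters and cluster 2, the label holds for part of the members only.

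**Figure D2:**
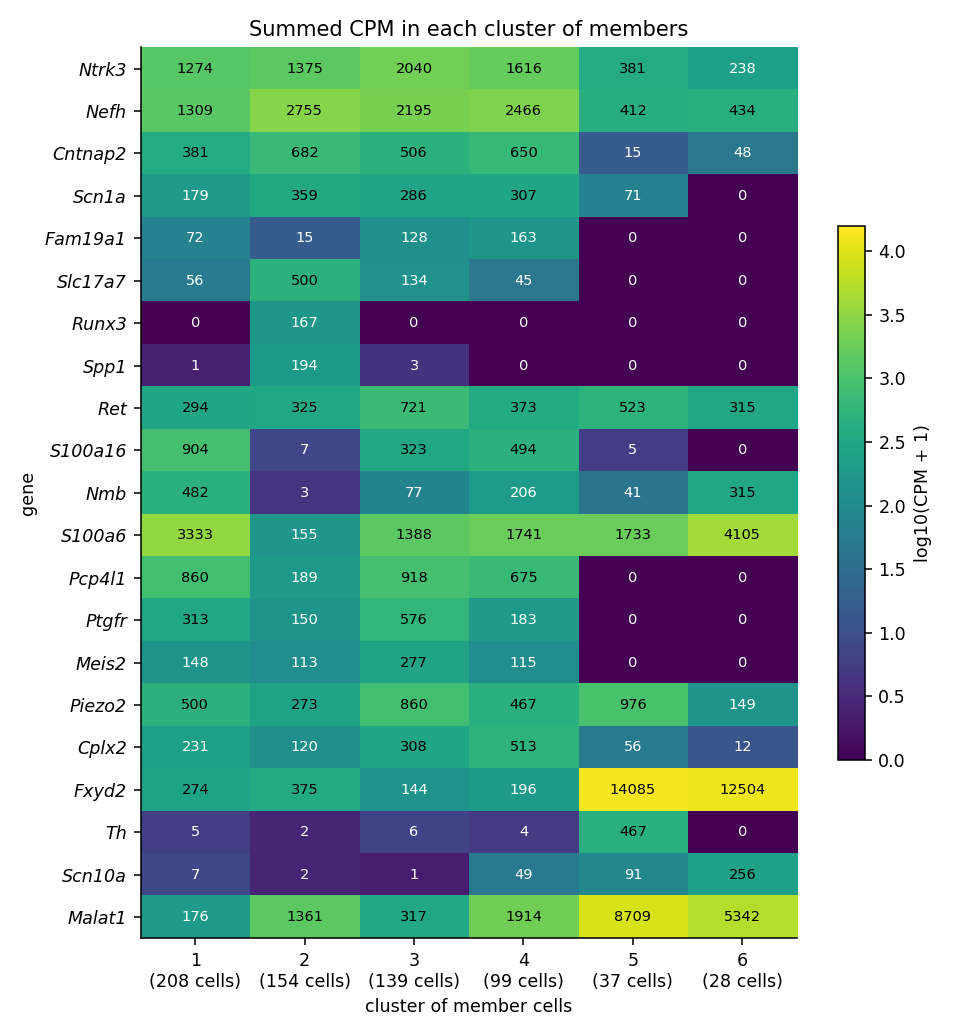
Summed level of 21 genes (rows) in the 6 clusters of members (columns); numbers are CPM and the colour is log10 of CPM plus 1. S100a16 stands at 904 CPM in cluster 1 and 6.88 CPM in cluster 2, while Runx3 is found in cluster 2 and Th in cluster 5.

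Levels of other genes varied with the number of Ntrk3 UMIs, which the selection used. The 124 members with 1 Ntrk3 UMI had a median of 3225 UMIs in all and 257 CPM of Ntrk3. The 394 members with 5 or more Ntrk3 UMIs had a median of 7987 UMIs and 1700 CPM of Ntrk3. Fam19a1 stood at 24.8 CPM in the 124 cells and 93.4 CPM in the 394 cells, and S100a16 at 35.2 and 694 CPM. Malat1, a nuclear long non-coding RNA, ran the other way, with 5337 CPM in the 124 cells and 238 CPM in the 394 cells.

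The make-up of the members varied between mice. Members with 5 or more Ntrk3 UMIs were 58.3% and 61.6% of the members of the deficient mice, 46.9% and 54.0% in the supplemented mice, and 62.5% and 77.7% in the wild-type mice. The supplemented mice were lowest. The wild-type mice lay above all 4 Ttpa-/- mice, but mouse 698 (50 of 80 members) was close to the deficient mouse 657 (53 of 86). The selection used Ntrk3, so this order is a description only. The count of UMIs per cell bears on this share, and the supplemented mouse 670 had the shallowest members; its part in the result was not tested. Cluster 3 held 19.4% and 19.8% of the members of the deficient mice, 19.8% and 13.3% in the supplemented mice, and 27.5% and 27.3% in the wild-type mice. Cluster 2 held 23.3% and 16.3%, 27.2% and 31.9%, and 20% and 16.5% in the same groups. Cluster shares were not tested, since the genes that define the clusters may themselves differ between mice.

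The members' share of Nefh cells was higher in the Ttpa-/- mice on average, by an amount that did not pass the test. It was 17.3% in mouse 654 and 12.9% in mouse 657 of the deficient group, 22.4% in mouse 670 and 14.2% in mouse 671 of the supplemented group, and 12.8% in both wild-type mice. The 4 Ttpa-/- mice lay above the wild-type mice, by less than the binomial error in mouse 657 (exact 95% interval 10.4% to 15.6%). The mean was 16.7 ± 4.22% in Ttpa-/- mice (SD, n = 4) and 12.8% in wild-type mice (n = 2), a difference of 3.91 percentage points. The two-sided exact permutation p was 0.2 over 15 permutations, where the smallest possible p is 0.0667. The highest shares were those of the shallow libraries 654 and 670. Thinning to 3000 UMIs left out all shallower cells. These were 2108 of 3958 kept cells in mouse 654 and 2316 of 3934 in mouse 670, against 591 to 1534 cells in the other mice. Among the deeper cells, so thinned, the shares were 25.6% and 21.2%, 26.3% and 21.5%, and 19.2% and 21.5%, and the groups overlapped. The thinned shares therefore do not cover all cells. Without mouse 670 the difference was 2.01 percentage points. Of all kept cells, members made up 3.22 ± 0.640% in Ttpa-/- mice and 3.01% in wild-type mice.

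**Figure D3:**
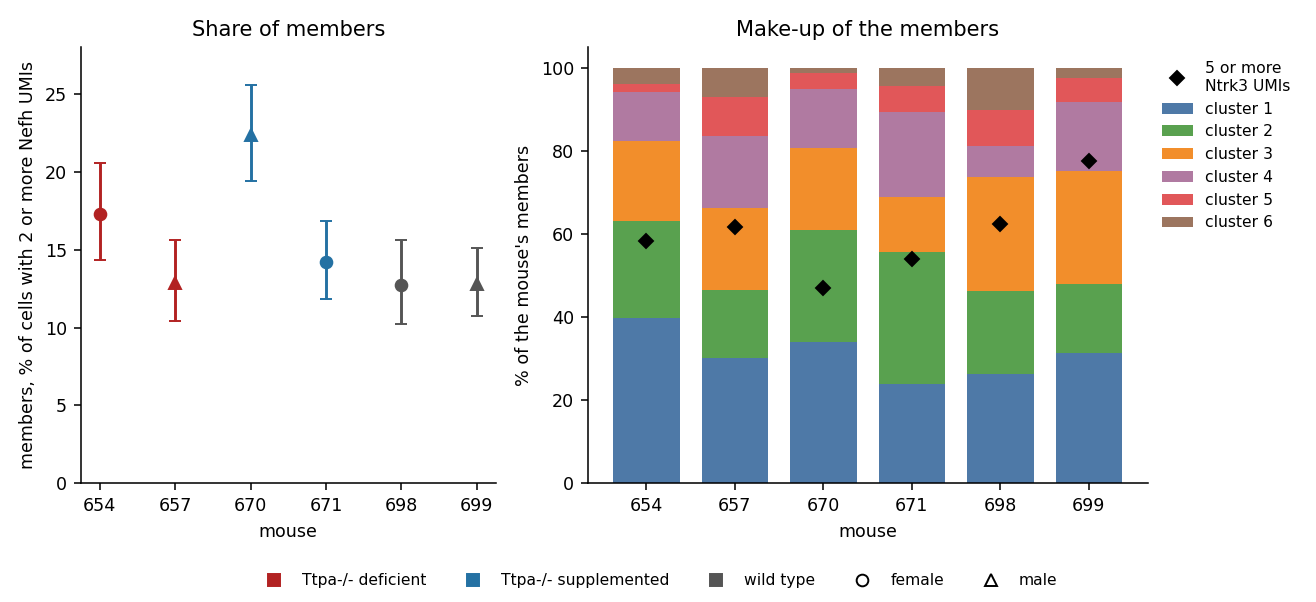
Left, members as a share of cells with 2 or more Nefh UMIs in each mouse (%, bars are exact 95% binomial intervals); right, make-up of the members of each mouse by cluster (stacked, %) with the share that had 5 or more Ntrk3 UMIs as black diamonds. The highest shares on the left are 22.4% (mouse 670) and 17.3% (mouse 654), the shallow libraries. The diamonds of the wild-type mice (62.5% and 77.7%) lie above those of the Ttpa-/- mice, of which mouse 657 is close at 61.6%.

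The response to vitamin E deficiency was asked of UMI counts summed over the members of each mouse. Of 27998 genes, 7298 passed the filter on low counts and were tested with edgeR's quasi-likelihood test and Benjamini-Hochberg adjustment. A gene was called at an adjusted p under 0.05, and fold changes are given as log2 with their standard error. Between deficient and wild-type mice 0 of the 7298 genes were called by edgeR (0%), with 236 genes at an unadjusted p under 0.05, where 365 would be expected by chance. DESeq2 called 0 and limma-voom called 1, Bhlhe41. Simulated counts of the same size returned 18 of 50 genes changed by 1.5-fold and 47 of 50 changed by 2-fold, with 7 false calls. The changed genes all averaged over 50 CPM, and the simulated spread followed a gene's level only. The simulation therefore does not cover lower genes or genes whose counts lie mostly in 1 cell.

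The smallest p-values between deficient and wild-type mice belonged to Bhlhe41, Pam, Wdfy1, Abhd2 and Mrpl4. Bhlhe41 (mm10 chromosome 6, 145858243 to 145865558) stood at 124 and 115 CPM in the deficient mice and 64.6 and 31.3 CPM in the wild-type mice. The groups did not overlap, and the log2 difference was 1.41 ± 0.26 (edgeR adjusted p 0.0615). Bhlhe41 was highest in cluster 6, which made up 3.88% and 6.98% of the members of the deficient mice and 10.0% and 2.48% of those of the wild-type mice. Its cells held 18 of 59 and 42 of 96 Bhlhe41 UMIs of the deficient mice, and 10 of 42 and 4 of 39 of the wild-type mice. A single cell held 14 of these UMIs in mouse 654 and 27 in mouse 657, against at most 4 and 2 in the wild-type mice. The part of these cells in the difference was not tested. Pam, which amidates neuropeptides, lies on chromosome 1 (97795114 to 98095646) and stood at 256 and 179 CPM in the deficient mice and 115 and 105 CPM in the wild-type mice, a log2 difference of 0.96 ± 0.19 (edgeR adjusted p 0.0738). The supplemented mice had 166 and 186 CPM of Pam, also above both wild-type mice.

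Wdfy1, an adaptor of endosomal Toll-like receptor signalling, lies on chromosome 1 (79702262 to 79776143). It stood at 35.6 and 53.8 CPM in the deficient mice, 21.1 and 41.0 CPM in the supplemented mice and 13.8 and 12.1 CPM in the wild-type mice. All 4 Ttpa-/- mice lay above both wild-type mice. The log2 difference was 1.86 ± 0.37 for deficient mice (edgeR adjusted p 0.0738) and 1.57 ± 0.34 for both diets together (edgeR adjusted p 0.156). In the other myelinated neurons of the same mice, the Pvalb, Calb1 and Ntrk2 cells pooled, Wdfy1 rose by 2.31 ± 0.32 in deficient mice (edgeR adjusted p 0.000236). The members' change in deficient mice minus that of the other neurons was -0.41 ± 0.44, which was not called.

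Abhd2, a lipid hydrolase, lies on chromosome 7 (79273199 to 79365508). It stood at 597 and 429 CPM in the deficient mice, 525 and 515 CPM in the supplemented mice and 237 and 318 CPM in the wild-type mice. The Ttpa-/- and wild-type mice did not overlap, and the 2 diets differed by 0.0012 ± 0.18 on the log2 scale. For both diets together the log2 difference was 0.85 ± 0.16 (edgeR adjusted p 0.0883), and limma-voom called it (adjusted p 0.0407). Among members with 5 or more Ntrk3 UMIs, Abhd2 stood at 597 and 436 CPM in the deficient mice, 511 and 446 CPM in the supplemented mice and 227 and 298 CPM in the wild-type mice. These cells held most of the members' Abhd2 UMIs in each mouse (177 of 323 in mouse 670 and 326 of 396 in mouse 699). Their values are therefore no separate evidence. With 2 to 4 Ntrk3 UMIs, Abhd2 stood at 714 and 569, 673 and 588, and 162 and 446 CPM in the same order of groups. The Ttpa-/- and wild-type mice did not overlap there. Members with 1 Ntrk3 UMI had 358 and 244, 373 and 798, and 395 and 496 CPM, from 17 to 82 UMIs per mouse. In those cells the deficient mice lay below the wild-type mice. Mrpl4, a mitochondrial ribosomal protein, stood lower, at 21.0 and 23.9 CPM in the deficient mice and 80.0 and 40.2 CPM in the wild-type mice (log2 difference -1.30 ± 0.34, edgeR adjusted p 0.881).

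The number of calls changed when single mice were left out. Leaving out mice 654, 657, 670, 671, 698 and 699 in turn gave 2, 12, 2, 2, 1 and 2 genes called between the deficient and wild-type mice. The 12 genes without mouse 657, which leaves mouse 654 as the only deficient library, included Pam, Bhlhe41, Abhd2, Vps8 and Nppb as higher and 6 mitochondrially encoded genes as lower. A lone mouse is there assumed to vary like the other groups. The 19 Nppb UMIs of mouse 654 lay in a single cell (0.971% of its 103 members). Without the shallow libraries 654 and 670 the count was 5, of which 2 were the sex-linked genes Xist and Ddx3y, since the deficient mouse left is male and the wild-type mice are of both sexes.

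Between supplemented and wild-type mice edgeR called 2 of 7298 genes (0.0274%), both higher, and 424 genes had an unadjusted p under 0.05. DESeq2 and limma-voom each called 1, Malat1 in both. Malat1 (chromosome 19, 5795690 to 5802672) stood at 1389 and 1920 CPM in the supplemented mice and 674 and 847 CPM in the wild-type mice, without overlap. It rose by 1.09 ± 0.19 on the log2 scale (edgeR adjusted p 0.0181). The deficient mice had 804 and 1011 CPM, and their difference from wild type was 0.26 ± 0.19. Malat1 was highest in clusters 5 and 6 and in members with 1 Ntrk3 UMI, which made up 25.9% and 22.1% of the supplemented mice's members and 16.2% and 10.7% of the wild-type mice's. Among members with 5 or more Ntrk3 UMIs it stood at 560 and 473 CPM in the supplemented mice, 265 and 82.2 CPM in the deficient mice and 103 and 164 CPM in the wild-type mice. The supplemented mice were highest there too, but these cells held only 194 of 854 and 263 of 1500 Malat1 UMIs of the supplemented mice. In the wild-type mice they held 51 of 438 and 180 of 1054. With 1 Ntrk3 UMI, Malat1 stood at 3519 and 6977 CPM in the supplemented mice and 3048 and 10660 CPM in the wild-type mice. With 2 to 4 it stood at 1661 and 4246 CPM against 1984 and 2552 CPM. The 2 groups overlapped in both of these parts.

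The Malat1 change in members was not shown to differ from that in other large neurons. In the other myelinated neurons of the same mice it was 1.16 ± 0.25 (edgeR adjusted p 0.155), and the difference between the 2 changes was -0.14 ± 0.25. The members' call for Malat1 was kept in 13 of 17 alternatives. It was lost without mouse 671 (log2 difference 0.81, edgeR adjusted p 0.489) and without mouse 698 (0.90, adjusted p 0.115). It was also lost with sex as a term (1.10, adjusted p 0.164) and with doublets kept (0.96, adjusted p 0.188), where the difference was about as large. The part of cell make-up in the result was not tested.

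The other called gene was Hbb-bs, a beta-globin of red blood cells (chromosome 7, 103826534 to 103828096). It stood at 402 and 2.56 CPM in the supplemented mice and 0 and 0.803 CPM in the wild-type mice, with a fitted log2 difference of 8.09 ± 1.44 (edgeR adjusted p 0.0181). The supplemented mice differed 100-fold or more between themselves, since 221 of the 247 UMIs in mouse 670 came from 1 cell. Without mouse 670 the log2 difference was 1.97 (edgeR adjusted p 0.999). Summed erythroid markers stood at 859 and 21.8 CPM in the supplemented mice and 29.2 and 41.8 CPM in the wild-type mice, so mouse 670 stood apart. Hba-a1, an alpha-globin, followed it with 93 of 106 UMIs of mouse 670 in 1 cell.

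Apoe, Vps8 and Abhd2 came next between supplemented and wild-type mice. Apoe, a lipoprotein that carries lipids between cells, stood at 99.2 and 125 CPM in the supplemented mice, 60.7 and 94.5 CPM in the deficient mice and 44.6 and 49.0 CPM in the wild-type mice. The Ttpa-/- mice lay above the wild-type mice, and the supplemented difference was 1.22 ± 0.24 (edgeR adjusted p 0.0601). Apoe is abundant in satellite glia, whose summed markers in members stood at 753 and 881 CPM in the supplemented mice, 698 and 1058 CPM in the deficient mice and 715 and 938 CPM in the wild-type mice. That sum is mostly Fbxo2, detected in 78.8% of members. Fabp7, a fatty acid binding protein of satellite glia, stood at 19.5 and 98.6 CPM in the supplemented mice, 23.0 and 52.6 CPM in the deficient mice and 18.5 and 22.5 CPM in the wild-type mice. It was highest in mice 671 and 657, and the groups of Ttpa-/- and wild-type mice overlapped. In members with 5 or more Ntrk3 UMIs, Apoe stood at 51.9 and 19.8 CPM in the supplemented mice, 51.2 and 29.9 CPM in the deficient mice and 26.4 and 31.1 CPM in the wild-type mice, and the groups overlapped. The part of glial RNA in the Apoe difference was not tested.

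Vps8, a subunit of the endosomal CORVET tethering complex (chromosome 16, 21423118 to 21644680), stood at 1576 and 818 CPM in the supplemented mice, 1142 and 496 CPM in the deficient mice and 388 and 545 CPM in the wild-type mice. Its supplemented difference was 1.30 ± 0.27 (edgeR adjusted p 0.0622). The highest values were those of the shallow libraries 670 and 654, and the part of depth was not tested. In turn without mice 654, 657, 670, 671, 698 and 699, there were 7, 7, 3, 6, 7 and 7 genes called between supplemented and wild-type mice, and leaving out 654 and 670 together gave 6, with Xist and Ddx3y among them.

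With both diets pooled against wild type, 0 of 7298 genes were called by edgeR (0%), with 291 at an unadjusted p under 0.05. DESeq2 called 0 and limma-voom called 1, Abhd2. Beside Abhd2, Pam, Wdfy1 and Apoe, the smallest p-values included Hsf2, a heat shock transcription factor (chromosome 10, 57486385 to 57513135). Hsf2 stood at 52.4 and 69.4 CPM in the deficient mice, 63.4 and 73.0 CPM in the supplemented mice and 23.1 and 34.5 CPM in the wild-type mice. The 4 Ttpa-/- mice lay above both wild-type mice, with a log2 difference of 1.10 ± 0.24 (edgeR adjusted p 0.156). Leaving out mice 654, 657, 670, 671, 698 and 699 in turn gave 5, 13, 2, 7, 1 and 4 calls, and leaving out 654 and 670 together gave 9, with Xist and Ddx3y among them.

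Between the deficient and supplemented mice, which shared genotype and age, 0 of 7298 genes were called by edgeR (0%), by DESeq2 and by limma-voom, with 372 at an unadjusted p under 0.05. Malat1 had the smallest p, with a log2 difference of -0.83 ± 0.19 (edgeR adjusted p 0.711). Fam104a averaged 165 ± 13.9 CPM in deficient mice and 93.5 ± 12.6 CPM in supplemented mice (log2 difference 0.85 ± 0.20, edgeR adjusted p 0.711). For Rimklb, 17 of the 35 UMIs of the deficient mouse 657 lay in 1 cell. Without mouse 654, 671 or 699 there were 5, 4 and 4 calls, and leaving out each of the others gave 0. Without 654 and 670 together there were 4, of which 2 were the sex-linked genes Xist and Ddx3y, since a male deficient mouse is then set against a female supplemented mouse.

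**Figure D4:**
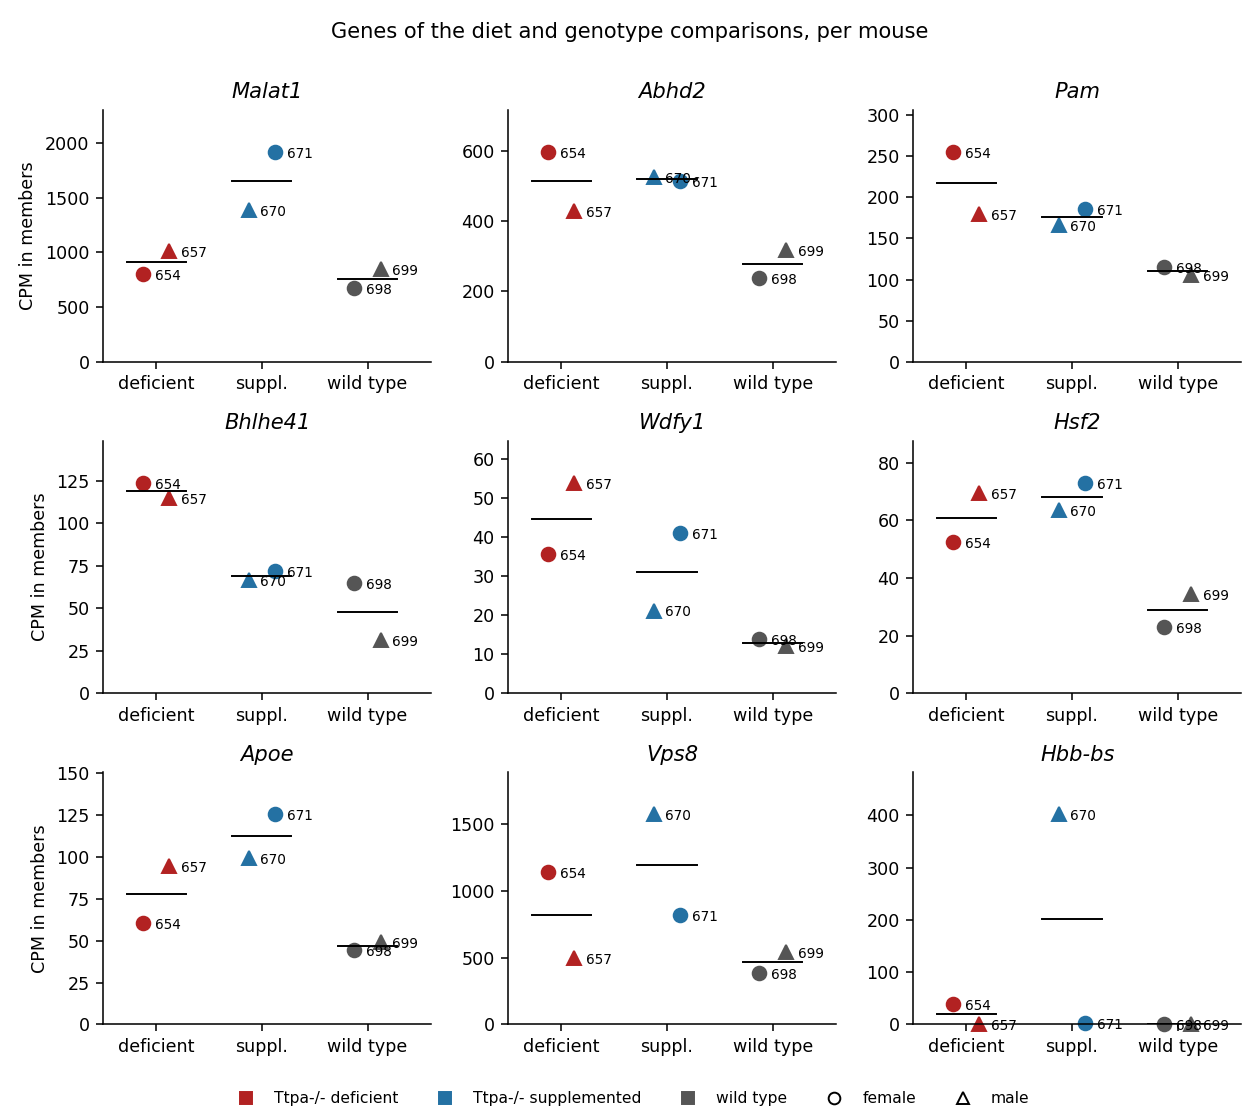
Summed level in the members (CPM) of 9 genes in each mouse, with deficient, supplemented and wild-type mice from left to right; each point is 1 mouse and the line is the group mean. Abhd2 stands between 429 and 597 CPM in the 4 Ttpa-/- mice and at 237 and 318 CPM in the wild-type mice, while Hbb-bs rests on mouse 670 (402 CPM).

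Gene lists chosen for large sensory neurons and for vitamin E were read against the same tests, with both diets pooled against wild type. No member of any list was called in either direction in any of the 4 comparisons. The median log2 difference over all 7298 genes was -0.0021. Of 30 ion channels of large fibres, 29 were tested, with 18 higher, 11 lower and a median of 0.05. Asic2, an acid-sensing channel, averaged 161 ± 23.2 CPM in Ttpa-/- mice and 122 ± 12.1 CPM in wild-type mice (log2 difference 0.36 ± 0.17). Kcns3, a modifier of delayed-rectifier potassium channels, averaged 74.3 ± 8.53 CPM in Ttpa-/- mice and 98.3 ± 8.59 CPM in wild-type mice (log2 difference -0.45 ± 0.18). Both had an edgeR adjusted p of 0.997.

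Among 18 sensory transcription factors, 15 were tested, with 12 higher, 3 lower and a median of 0.14. Maf, a transcription factor of touch neurons, averaged 80.2 ± 13.96 CPM in Ttpa-/- mice and 106 ± 8.96 CPM in wild-type mice (log2 difference -0.42 ± 0.18). Esrrg, an orphan nuclear receptor, had a log2 difference of -0.76 ± 0.32. The 12 cytoskeletal genes were all tested, with 8 higher, 4 lower and a median of 0.03. Nefl, the light neurofilament subunit, averaged 3575 ± 358 CPM in Ttpa-/- mice and 3676 ± 77.8 CPM in wild-type mice. Of 19 transmitter release genes 18 were tested, with 12 higher, 6 lower and a median of 0.03. Of 16 calcium-binding protein genes 12 were tested, with 7 higher, 5 lower and a median of 0.05. Hpcal1, a neuronal calcium sensor, had a log2 difference of 0.43 ± 0.19. Of 8 neurotrophic factor receptors 7 were tested, with 2 higher, 5 lower and a median of -0.02, and Ret averaged 389 ± 48.7 CPM in Ttpa-/- mice and 439 ± 77.0 CPM in wild-type mice.

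Genes of antioxidant defence and vitamin E handling lay near the median of all genes. Of 29 antioxidant, glutathione and ferroptosis genes 20 were tested, with 6 higher, 14 lower and a median of -0.03. By diet, 13 were higher and 7 lower in deficient mice (median 0.02), and 6 higher and 14 lower in supplemented mice (median -0.17). Between the diets none of the 20 was called. Cat (catalase) averaged 119 ± 18.1 CPM in Ttpa-/- mice and 145 ± 22.7 CPM in wild-type mice, and Mgst3 averaged 548 ± 120 CPM in Ttpa-/- mice and 455 ± 10.1 CPM in wild-type mice. Both overlapped between groups. Of 15 vitamin E and lipoprotein genes 6 were tested, with 4 higher, 2 lower and a median of 0.03, and Apoe was the only one at an unadjusted p under 0.05. Of 13 axon injury genes 5 were tested, with 3 higher and 2 lower. Atf3, a transcription factor induced by axon injury, averaged 46.7 ± 9.84 CPM in Ttpa-/- mice and 29.9 ± 5.37 CPM in wild-type mice (log2 difference 0.55 ± 0.26, edgeR adjusted p 0.997). Of 14 immediate early genes 9 were tested, with 6 higher and 3 lower, and Egr1 had a log2 difference of 0.39 ± 0.20. A list of 11 genes that earlier results of these same data had named had 8 tested, with 7 higher, 1 lower and a median of 0.76. Its direction is no independent evidence.

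The mitochondrially encoded genes were the list that stood lowest. All 12 tested of 13 were lower in Ttpa-/- mice, with a median log2 difference of -0.49, and 11 had an unadjusted p under 0.05. None was called, and the smallest edgeR adjusted p was 0.595, that of mt-Nd4l (log2 difference -1.18 ± 0.32). mt-Atp6, a subunit of the mitochondrial ATP synthase, stood at 2960 and 5769 CPM in the deficient mice, 3279 and 5331 CPM in the supplemented mice and 7787 and 5846 CPM in the wild-type mice. The groups did not overlap, but the deficient mouse 657 lay within 100 CPM of the wild-type mouse 699. The list summed to 9857 and 18800 CPM in the deficient mice, 11680 and 17710 CPM in the supplemented mice and 23890 and 18270 CPM in the wild-type mice. Mouse 657 lay above the wild-type mouse 699, and the low sums were those of the shallow libraries 654 and 670. The part of depth and of cell quality in this pattern was not tested.

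**Figure D5:**
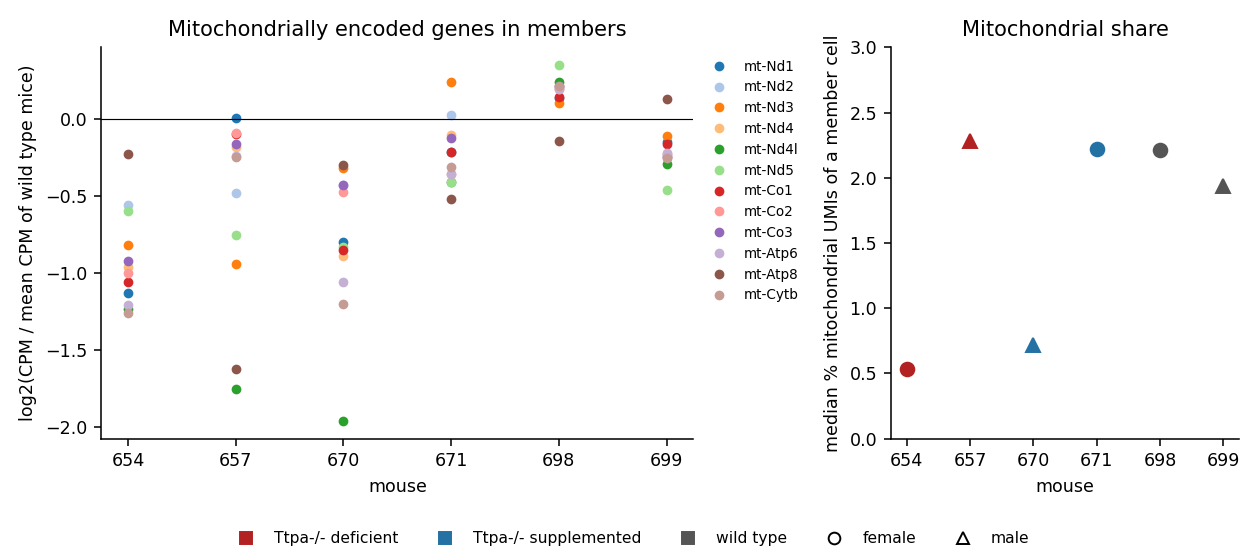
Left, log2 ratio of each of 12 mitochondrially encoded genes in each mouse to the mean of the wild-type mice; right, median mitochondrial share of UMIs per member cell (%) in each mouse. The 2 mice with the lowest summed levels, 654 and 670, also have the lowest shares (0.537% and 0.718%), and the other Ttpa-/- mice have shares of 2.22% and 2.28%.

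Whether the members responded differently from the other myelinated neurons was tested as an interaction with mouse as a block, over 8302 genes. In deficient against wild-type mice edgeR called 1 gene, Nts (0.012%), with 367 genes at an unadjusted p under 0.05, and limma-voom called 0. Nts encodes the neuropeptide neurotensin. Members had 9 and 11 UMIs of Nts in the deficient mice and 2 and 0 in the wild-type mice, whereas the other neurons had 0 and 1 in the deficient mice and 3 and 50 in the wild-type mice. All 9 UMIs of mouse 654 and 9 of the 11 of mouse 657 lay in 1 cell each. The interaction of 8.23 ± 1.39 (edgeR adjusted p 0.00835) rests on those cells and on the 50 UMIs in the other neurons of mouse 699. No gene was called once each gene's highest cell in each mouse was left out. That alternative left cells out of both sets, so it cannot tell their parts from each other. In turn without mice 654, 657, 670, 671, 698 and 699, there were 0, 1, 1, 0, 6 and 1 genes called. Nts was among the calls without mouse 670 and without mouse 698, while the single call was Mgst3 without mouse 657 and Malat1, lower, without mouse 699.

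In supplemented against wild-type mice edgeR's interaction called 0 of 8302 genes (0%), with 392 at an unadjusted p under 0.05, and limma-voom called 0. Fabp7 had the smallest p (1.65 ± 0.34, edgeR adjusted p 0.156). In members it stood at 19.5 and 98.6 CPM in the supplemented mice and 18.5 and 22.5 CPM in the wild-type mice, with mouse 671 highest. Without mouse 654, 671, 698 or 699 there were 3, 1, 6 and 4 calls, and leaving out the other mice gave 0. For both diets together the interaction called 0 genes with edgeR (0%), 306 at an unadjusted p under 0.05, and 0 with limma-voom. Leaving out mice 654, 698 and 699 gave 2, 7 and 4 calls, and leaving out the other mice gave 0.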

How the data were processed

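The authors deposited 1 table of raw UMI counts of 27998 genes in 21685 cells, from 10x Chromium 3' v2 libraries of dorsal root ganglia per the labels. The submitters' processing notes name bcl2fastq 2.17.1.14, Cell Ranger 2.0.1, the mm10 build, Seurat 2.3.0 and limma 3.32.10. The sources used here do not state how the deposited cells were selected. Libraries held 12538785 to 19383933 UMIs, and 8608 genes had no count.

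A filter of 500 genes per cell and a mitochondrial share of 20% removed 27 cells. Doublets were scored per mouse with scanpy 1.11.5 (scrublet). The automatic threshold marked 45 cells (0.208%), so the expected rate of 0.8% per 1000 cells was used and 635 (2.93%) were removed. Members were clustered on 1500 variable genes, 20 principal components and 15 neighbours with leidenalg 0.10.2 at resolution 0.5.

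UMIs were summed per mouse. edgeR 4.0.16 (TMM, filterByExpr, quasi-likelihood) was fitted over all 3 groups with 3 residual degrees of freedom, and the biological coefficient of variation was 11.7%. DESeq2 1.42.0 and limma 3.58.1 (voom) in R 4.3.3 were alternatives. The interaction compared members with the other myelinated neurons of the same mouse. The cell rule was also run more strictly (no Pvalb, Calb1 or Ntrk2 UMI and 2 or more Ntrk3 UMIs). The code was tested on simulated data. CPM scale a gene's UMIs to a fixed total of UMIs over the summed cells. Intervals and limits from 3 counts cover counting error only. Sums over a cell set cannot tell fewer RNA molecules per cell from a different make-up of cells.

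Genes were named when called (up to 12 per direction, average log2 CPM of 4 or more, no overlap of groups), else as the 5 with the smallest p in a comparison. Up to 2 per direction were named of each list and up to 8 per direction against each neighbouring set. Hbb-bs was named as 1 of the 2 calls although its groups' spread is wide. Coordinates are from mm10 with GENCODE. The members, the lists and these rules were chosen with earlier results of these data known. Some genes that these rules reach are not reported here.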

Additional observations from a re-analysis of the deposited data

Results flagged for a closer look

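Nts met a rule for a closer look because its change in deficient against wild-type mice differed between the members and the other myelinated neurons, with an interaction of 8.23 ± 1.39 on the log2 scale (edgeR adjusted p 0.00835). The call was absent with limma-voom, under the stricter cell rule, without each gene's highest cell, and without mouse 654, 657, 671 or 699. It was kept without mouse 670 and without mouse 698. Over these counts of 9 and 11 UMIs in deficient members, 9 and 9 came from single cells, and in the other neurons mouse 699 alone held 50.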

How the results depend on the processing

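No paired analysis was possible because the mouse numbers are unique and the groups share none; the mouse was a block only within the interaction. Counts of called genes are given for deficient against wild type, supplemented against wild type, both diets against wild type and deficient against supplemented, in this order. They were 0, 2, 0 and 0 in the analysis reported. Without the low-count filter they were 9, 15, 16 and 10, with limma-voom 1, 1, 1 and 0, and with DESeq2 0, 1, 0 and 0. With sex as a term, and with doublets kept, they were 0, 0, 0 and 0. With 1000 genes and 10% mitochondrial UMIs as the filter they were 2, 6, 2 and 0, under the stricter cell rule 3, 1, 1 and 0, and with sums thinned to the smallest 0, 3, 0 and 0. Without mice 654 and 670 they were 5, 6, 9 and 4, and without each gene's highest cell 0, 4, 1 and 0; these 2 alternatives were chosen after seeing the data, and the first unbalances the sexes, with Xist and Ddx3y among the calls in each comparison. Leaving out each mouse gave ranges of 1 to 12, 3 to 7, 1 to 13 and 0 to 5. RLE scaling left all 4 counts as they were. The causes of these moves were not tested.

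For the interaction the counts (deficient, supplemented, both) were 1, 0 and 0. They were 2, 3 and 3 without the low-count filter, 0, 0 and 0 with limma-voom, under the stricter cell rule and without each gene's highest cell, and 0 to 6, 0 to 6 and 0 to 7 with each mouse left out. The members' share of Nefh cells differed by 3.49 percentage points with doublets kept, 3.96 with the stricter filter and 2.54 under the stricter rule. It differed by 3.29 among the deeper cells that were thinned, 0.207 of all kept cells, and 2.01 to 5.18 with each mouse left out.

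For single genes, 895 values kept direction and side of the threshold, 79 passed it newly, 9 lost it and 22 turned. Between diets, Hbb-bs ranged over -10.29 to 2.61 with each mouse left out, turning without mouse 670. For both diets against wild type, these turned. With sums thinned, Runx3 was -0.0376, Gfra2 0.0074 and Abcg1 0.11. Under the stricter rule Nefl was 0.0615, Ret 0.11, Gfra2 1.16 and Necab1 0.24. Without mice 654 and 670, Mgst3 was -0.0265 and Npc2 0.0037. Without each gene's highest cell Necab1 was 0.0030. With each mouse left out, Runx3 ranged over -0.27 to 1.54, Gfra2 over -0.72 to 0.27, Npc2 over -0.22 to 0.0359, Abcg1 over -0.21 to 0.13, Gadd45a over -0.0137 to 0.30, Flrt3 over -0.20 to 0.0448, Jund over -0.46 to 0.19 and Necab1 over -0.18 to 0.0626. The mice whose omission turned the sign were 699 for Runx3, Abcg1, Gadd45a and Jund, 698 for Gfra2 and Necab1, 671 for Abcg1, Flrt3 and Necab1, and 654 for Npc2 and Necab1. At this depth and 2 mice a group, the simulation returned 18 of 50 genes changed by 1.5-fold, all of them averaging over 50 CPM.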
